A study of Mus musculus with 5 samples.

Results

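The Adam, Adamts and Mmp genes encode zinc-dependent proteases of the cell surface and the extracellular matrix. They were followed in RNA of mouse embryonic stem cells, pluripotent lines grown from early embryos. The genes were chosen by symbol alone, as every gene of the deposited exon count table named Adam plus a number and an optional letter, Adamts, or Mmp plus a number. This gave 56 of 10855 gene symbols, namely 25 Adam, 13 Adamts, 4 Adamtsl and 14 Mmp genes. In all, 80 symbols of the GENCODE annotation have such names. The other 24, among them Adam10, Adam17, Mmp2 and Mmp14, were not analysed here, because the table lists most of its reads under assembly IDs and does not pair these with symbols.

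Polyadenylated RNA of 2 libraries from cells labelled as deleted for the -45 super-enhancer (deleted 1 and 2) was set against 3 wildtype libraries (wildtype 1 to 3). The element is a dense group of enhancers near the pluripotency gene Nanog, and the comparison asks how expression differs without it. All cells came under 1 shared protocol of 6 days in either ethanol vehicle or 4-hydroxytamoxifen, and the labels assign neither treatment to a library. They also do not say whether replicates were separate cultures or clones, and the p-values measure spread between libraries that may be technical alone.

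ADAM proteins are membrane-anchored and cut the outer parts off growth factors, receptors and adhesion molecules, although several members lack an active protease site and act in adhesion. ADAMTS proteins are secreted and cut proteoglycans, procollagens and other matrix proteins, while the ADAMTS-like proteins keep only the non-catalytic domains. MMP proteins cut collagens, gelatin and other matrix and cell-surface proteins, and most are held in check by TIMP inhibitors. Many ADAM genes are known from testis and sperm, and many MMP genes from inflamed or remodelling tissue.

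Bin counts totalled 93574609 and 99134363 in deleted 1 and 2, and 125184361, 114838600 and 213042746 in wildtype 1, 2 and 3. Rows with gene symbols held 0.3506% to 0.3574% of these counts in the deleted and 0.3279% to 0.3754% in the wildtype libraries, so the values below rest on few reads. Levels are given as CPM, counts per 1000000 bin counts after scaling for library size and composition. A level of 3 counts, the limit that a count of 0 allows, was worth 0.0303 to 0.0321 CPM in the deleted and 0.0139 to 0.0263 CPM in the wildtype libraries. Wildtype 3 stood apart from wildtype 1 and 2, with a chi-square per degree of freedom of 93.4 and 87.4 against 9.96 between those 2 libraries, and 21.9 between the deleted libraries. In bulk RNA, fewer cells of a type and less RNA per cell cannot be told apart.

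The stem cell markers listed for this check (Pou5f1, Nanog and 6 others) had no row under their symbols, so the labelled cell type was not checked here. Fibroblasts often serve as feeders for such cultures, and 4 of the 9 fibroblast markers with rows were tested. Of these 4, Col1a2 and Pdgfrb were higher in deleted cells, and Col1a1 and Fbn1 did not pass. With 1 library left out, log2 fold changes (deleted minus wildtype) were 0.029 to 0.34 for Fbn1 and 0.40 to 0.56 for Pdgfrb. Fbn1 passed in at least 1 of these fits (lowest edgeR adjusted p of 0.00371), and the Pdgfrb call was not kept in all of them. The summed level of all 9 was 11.7 to 11.8 CPM in the deleted and 8.43 to 11.2 CPM in the wildtype libraries. Most of it came from Fbn1 and Pdgfrb. The untested Col3a1, Dcn, Lum, Postn and Twist2 had mean levels of 0.0494 CPM or lower in each group. Of 8 primitive endoderm markers, 3 (Sox7, Pdgfra and Cubn) were lower in deleted cells and 5 did not pass, with sums of 5.11 to 6.44 CPM in the deleted and 7.89 to 9.07 CPM in the wildtype libraries. The part of these cells in the results below was not tested.

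Of the 56 genes, 23 had enough counts for a test, namely 9 Adam, 8 Adamts, 2 Adamtsl and 4 Mmp genes. Another 18 had some counts, at most 16 in any library, and 15 had a count of 0 in all 5 libraries. The summed level of all 56 genes was 22.0 and 21.4 CPM in deleted 1 and 2, and 19.4, 19.4 and 21.8 CPM in wildtype 1, 2 and 3, so the groups overlapped. Adam22 alone contributed 4.09 to 5.49 CPM per library.

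**Figure D1:**
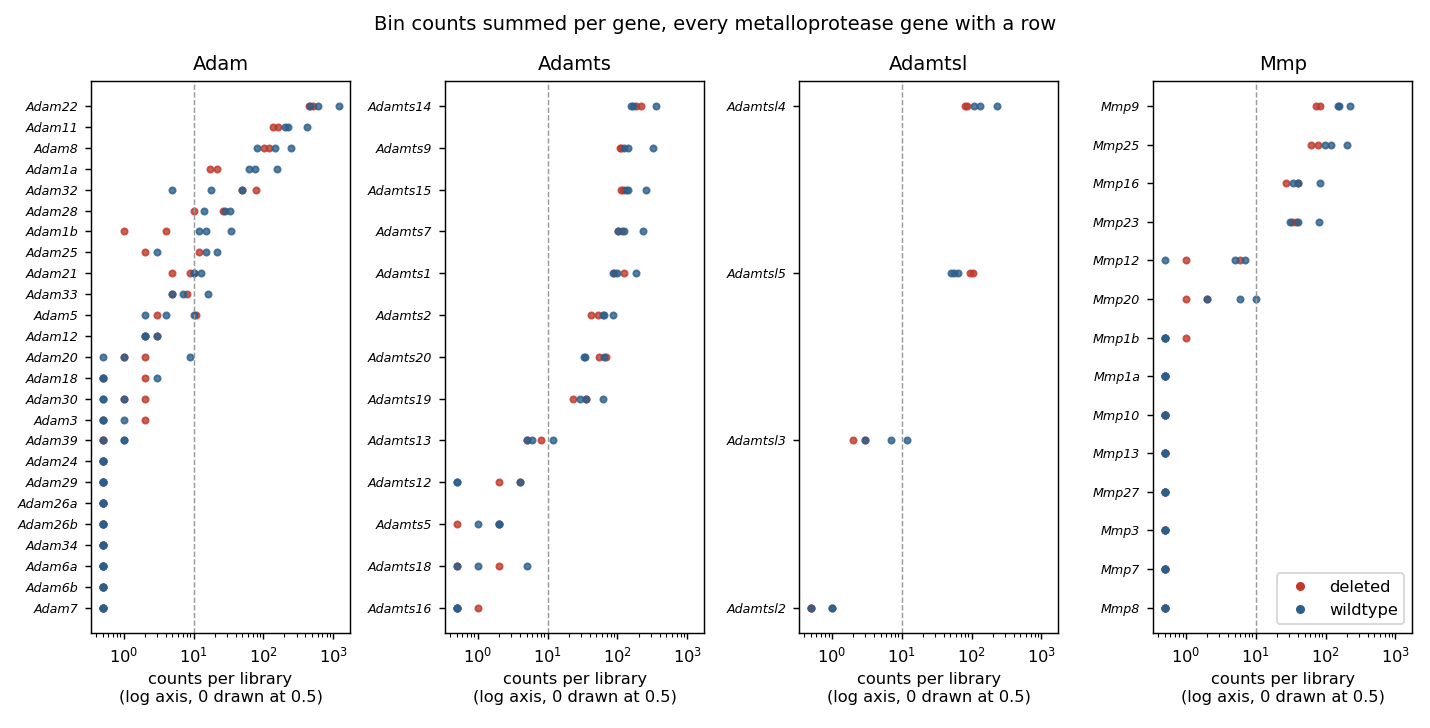
Bin counts summed per gene for every Adam, Adamts, Adamtsl and Mmp gene with a row, on a log axis with a count of 0 drawn at 0.5. Red points are the 2 deleted and blue points the 3 wildtype libraries, and the dashed line marks 10 counts; 23 genes were tested, and 15 genes lie at 0 in every library.

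In deleted cells, 4 of the 23 tested genes were higher (Adam32, Adamts14, Adamts20 and Adamtsl5) and 3 were lower (Adam1a, Adam1b and Mmp9) at an edgeR adjusted p under 0.05. The other 16 did not pass. Without wildtype 3, which stood apart, the same 7 genes passed, with a log2 fold change of 2.77 for Adam32, and Adamts1 was added. The count was 4 without wildtype 1, or 18.2% of tested metalloprotease genes beside 32.9% of all tested genes. Without wildtype 2 it was 5, or 22.7% beside 32.6%, and without wildtype 3 the shares were 36.4% and 51.9%. It also fell without either deleted library, which leaves 1 library in that group. With all 5 libraries the called share was 30.4%, against 32.1% of all 3591 tested symbols, of which 19.0% were higher and 13.1% lower. Over all 16259 tested genes it was 39.7%, with 20.0% higher and 19.7% lower. With all 5 libraries the share of called metalloprotease genes was thus near that of tested symbols and below that of all tested genes. All tested genes are a background of higher level, with a median log2 CPM of 3.46. This median was -0.68 for the 23 genes and -1.12 for tested symbols. Shares of tested symbols were not taken in the fits with a library left out. The median log2 fold change (deleted minus wildtype) was 0.057 over the 23 genes and 0.070 over all tested symbols. The CPM of deleted and wildtype libraries did not overlap in 6 genes that were higher and 5 that were lower, where the same held for 32.8% and 24.2% of tested symbols. By size, 5 of the 23 differed by more than 2-fold, against a background of 16.6%.

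**Figure D2:**
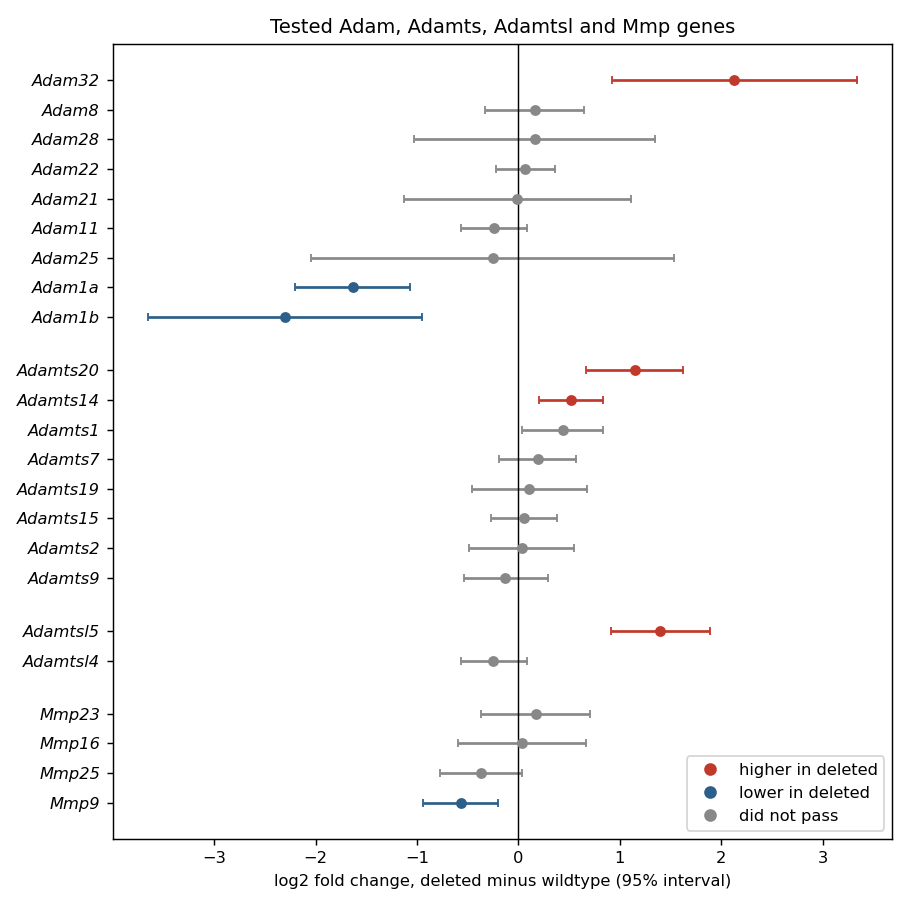
Log2 fold change (deleted minus wildtype) with its 95% interval for the 23 tested genes, grouped by family. Red marks the 4 genes higher and blue the 3 genes lower in deleted cells, and the widest intervals belong to Adam25 and Adam1b, genes of few counts.

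Among the Adam genes, the sperm protein genes Adam1a and Adam1b were lower and Adam32 was higher in deleted cells, while 6 of 9 did not pass. Adam1a and Adam1b encode the mouse forms of fertilin alpha, known from sperm maturation, and neighbour each other on chromosome 5. Adam1a had 22 and 17 counts, or 0.236 and 0.172 CPM, in deleted 1 and 2, against 77, 62 and 154 counts, or 0.619, 0.543 and 0.713 CPM, in wildtype 1, 2 and 3. Both deleted libraries lay far below every wildtype library. For Adam1a the group means were 0.204 ± 0.0454 CPM over the deleted (SD, n = 2) and 0.625 ± 0.0852 CPM over the wildtype libraries (SD, n = 3), which gave -1.63 ± 0.25 on the log2 scale (SE; edgeR adjusted p of 0.00102).

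Adam1b had 4 and 1 counts in deleted 1 and 2, or 0.0429 and 0.0101 CPM. In wildtype 1, 2 and 3 it had 15, 12 and 34 counts, or 0.121, 0.105 and 0.157 CPM. The groups again did not overlap, and deleted 2 lay below the level of 3 counts. The log2 fold change of Adam1b was -2.30 ± 0.59 (SE; edgeR adjusted p of 0.0144). Adam1b met the low-count filter only through the wildtype libraries, so it could be tested only because it was high there. Without deleted 2 its log2 fold change was -1.62 and the call was lost (edgeR adjusted p = 0.117), and without deleted 1 it was -3.59.

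Single values of this pair are uncertain. Each had 1 exon bin in the table, and 32.4% of the 50-base words of Adam1b transcripts in GENCODE occurred in other genes, most often in Adam1a. For Adam1a this share was 77.8%, and its annotated exons overlapped those of Mapkapk5 and Gm42878 on the same strand and of Tmem116 on the opposite strand, over 24%, 63.7% and 11.3% of their length. The strand setting of the counting is not given in the sources used here, so reads of such overlapping genes cannot be told apart. Summed over the pair, the level was 0.230 ± 0.0685 CPM over the deleted (SD, n = 2) and 0.752 ± 0.112 CPM over the wildtype libraries (SD, n = 3), a ratio of 0.306.

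The promoter windows of the pair are shown because the genes are neighbours and related in sequence. These windows are from RefSeq on GRCm38.p6 and run from 250 bases before to 50 bases after the annotated start, 5′ to 3′ on the gene's strand. The Adam1a window is chr5:121521646-121521945, minus strand, and that of Adam1b is chr5:121503386-121503685, minus strand. Capitals mark letters of 4 motifs searched on both strands: the GC box GGGCGG, the AP-1 motif TGANTCA, the octamer ATGCAAAT and the TATA motif TATAAA. Matches of 1 motif could overlap each other.
Adam1a: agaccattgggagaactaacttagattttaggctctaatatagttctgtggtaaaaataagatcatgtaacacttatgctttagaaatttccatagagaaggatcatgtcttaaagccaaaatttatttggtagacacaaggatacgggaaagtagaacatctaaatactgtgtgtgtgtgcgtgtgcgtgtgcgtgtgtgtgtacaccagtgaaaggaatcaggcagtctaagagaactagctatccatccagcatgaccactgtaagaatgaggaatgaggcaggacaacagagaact
Adam1b: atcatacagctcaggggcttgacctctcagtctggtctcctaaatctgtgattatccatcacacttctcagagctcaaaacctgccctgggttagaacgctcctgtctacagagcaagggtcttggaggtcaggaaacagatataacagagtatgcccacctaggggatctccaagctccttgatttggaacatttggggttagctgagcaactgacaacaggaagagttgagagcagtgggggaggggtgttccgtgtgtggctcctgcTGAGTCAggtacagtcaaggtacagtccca
Adam1a had no match and Adam1b 1 AP-1 match, starting at base 21 after the start. Of 32544 RefSeq windows of this length, 35.9% held the GC box, 7.79% the AP-1 motif, 1.75% the octamer and 13.6% the TATA motif. The observed to expected ratio of CpG pairs was 0.357 in Adam1a, near the median of 0.387 over all windows. In Adam1b it was lower, at 0.103.

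Adam32, a gene known mainly from testis, had 79 and 49 counts in deleted 1 and 2, or 0.847 and 0.495 CPM. In wildtype 1, 2 and 3 it had 18, 5 and 49 counts, or 0.145, 0.0438 and 0.227 CPM. Every deleted library was above every wildtype library, yet both groups were spread widely. Adam32 came to 0.671 ± 0.249 CPM over the deleted (SD, n = 2) and 0.138 ± 0.0917 CPM over the wildtype libraries (SD, n = 3). The log2 fold change, 2.13 ± 0.50 (SE), passed at an edgeR adjusted p of 0.0171. The call was lost without deleted 1 (log2 fold change 1.70; edgeR adjusted p = 0.122) and without wildtype 1 (2.08; 0.0698). Of its 23 exon bins, 12 had at least 10 counts over the libraries, and all 12 had a higher mean in deleted cells. Single libraries overlapped in some of these bins. Here and below, bins are parts of the counts behind a gene's value, so their direction is not separate evidence.

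Adam32 lies on chromosome 8, where the median of 160 tested symbols was 0.52 (log2 fold change) and 42.5% were higher in deleted cells. The 95% interval of Adam32 was 0.92 to 3.34. What part the chromosome has in its difference was not tested. The chromosome held 13 of the 56 genes. Its other 11 Adam genes, like it known from testis, summed to 19 and 16 counts in deleted 1 and 2, and 20, 9 and 43 in wildtype 1, 2 and 3. Of these 11 genes 5 were at 0 in every library and only Adam25 was tested (log2 fold change -0.25 ± 0.77, SE). Adam5, a direct neighbour of Adam32, had 3 and 11 counts in deleted 1 and 2, and 2, 4 and 10 in wildtype 1, 2 and 3, so its groups overlapped. Adam9, on the other side of Adam32, had no row under its symbol.

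The Adam genes with the highest levels per kilobase of exon did not pass. Adam22 encodes a catalytically inactive neuronal receptor for the secreted protein LGI1, and had 4.84 and 5.25 CPM in deleted 1 and 2, against 4.78, 4.09 and 5.49 CPM in wildtype 1, 2 and 3. Its groups overlapped, with a log2 fold change of 0.070 and a 95% interval of -0.22 to 0.36. Adam11, a related inactive gene of the nervous system, had 1.71 and 1.40 CPM in the deleted libraries, against 1.62, 1.95 and 1.94 CPM in the wildtype ones. Its log2 fold change was -0.24, with an interval of -0.57 to 0.087. Adam8, a protease known from leukocytes, had 1.08 and 1.20 CPM in the deleted and 1.19, 0.718 and 1.13 CPM in the wildtype libraries (log2 fold change 0.16; interval -0.33 to 0.65). None of these 3 intervals reached a change of 2-fold. Adam28, known from human lymphocytes, and the testis gene Adam21 had log2 fold changes of 0.16 ± 0.52 and -0.0088 ± 0.50 (SE). Their 95% intervals reached past a 2-fold change in both directions. Of the Adam28 counts, 91.9% lay in bin 1 of its 25 bins, so its value reflects mostly that bin.

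Per kilobase of annotated exon, Adam22 also had the highest level of the 23 genes, at a mean of 0.455 CPM per kilobase over the 5 libraries. Adam8, Adam11, Mmp9, Adamts14 and Adamtsl5 followed at 0.342, 0.338, 0.333, 0.330 and 0.307 CPM per kilobase, differing from each other by less than the spread of Adam8 between libraries. The lowest tested gene was Adam21, at 0.0258 CPM per kilobase. Exon lengths came from GENCODE on GRCm38, which differs from the authors' build, so the order of close levels is approximate.

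Among the 8 tested Adamts genes, Adamts20 and Adamts14 were higher in deleted cells and 6 did not pass. Adamts20 encodes a protease that acts on the proteoglycan versican and is known from the belted coat mutation of mice. It had 68 and 55 counts in deleted 1 and 2, or 0.729 and 0.555 CPM, against 33, 34 and 65 counts, or 0.265, 0.298 and 0.301 CPM, in wildtype 1, 2 and 3. The wildtype libraries lay close together, and both deleted libraries were well above them. The means were 0.642 ± 0.123 CPM over the deleted (SD, n = 2) and 0.288 ± 0.0196 CPM over the wildtype libraries (SD, n = 3), or 1.15 ± 0.21 on the log2 scale (SE; edgeR adjusted p of 0.00262).

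Counts of Adamts20 were not spread evenly over its 41 exon bins. Bins 1 to 10 had no count in any library, bin 12 held 13.7% of the counts, and bins 31 to 41 held 68.6%. All 10 bins with at least 10 counts had a higher mean in deleted cells, with single libraries overlapping in some. Where the bins lie in the gene is not given in the sources used here. Prickle1, the next gene on chromosome 15 and part of planar polarity signalling, had a log2 fold change of 0.48 with an SE of 0.11 (edgeR adjusted p of 0.00795), a call lost without deleted 2 (0.38; 0.0891).

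Adamts14, a protease that trims the amino end of fibrillar procollagens, had 1.99 and 2.21 CPM in deleted 1 and 2, against 1.27, 1.45 and 1.65 CPM in wildtype 1, 2 and 3. The groups did not overlap, but the difference was small. For Adamts14 the group means were 2.10 ± 0.154 CPM over the deleted (SD, n = 2) and 1.46 ± 0.189 CPM over the wildtype libraries (SD, n = 3), which gave 0.52 ± 0.14 on the log2 scale (SE; edgeR adjusted p of 0.0181). The call was lost without deleted 1, deleted 2, wildtype 1 or wildtype 2 (edgeR adjusted p = 0.0552, 0.153, 0.0632 and 0.0508), and in its most counted bin alone (log2 fold change 0.14; edgeR adjusted p = 0.675). That bin held 27.5% of its counts. Of its 22 bins, 20 had a higher mean in deleted cells, but these are parts of the counts behind the call. Adamts2, which trims the same procollagens, had a log2 fold change of 0.033 with an interval of -0.49 to 0.55.

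The versican- and aggrecan-cutting proteases Adamts1, Adamts9 and Adamts15 did not pass. Adamts1 had 0.954 and 1.25 CPM in deleted 1 and 2, above 0.699, 0.866 and 0.865 CPM in wildtype 1, 2 and 3. Its log2 fold change was 0.44 with an SE of 0.18 (edgeR adjusted p of 0.0777), and it passed without wildtype 3 (0.49; 0.0449). Adamts9 had 1.18 and 1.14 CPM in the deleted and 1.01, 1.24 and 1.50 CPM in the wildtype libraries, and Adamts15 had 1.28 and 1.14 CPM in the deleted and 1.06, 1.25 and 1.17 CPM in the wildtype libraries. In both genes the deleted libraries lay within the wildtype range or just above it, with intervals of -0.54 to 0.29 for Adamts9 and -0.27 to 0.38 for Adamts15. Adamts7, which cuts the cartilage protein COMP, had 1.10 and 1.16 CPM in the deleted and 0.812, 1.07 and 1.08 CPM in the wildtype libraries. Its log2 fold change of 0.19 ± 0.17 did not pass (edgeR adjusted p = 0.401), although the groups did not overlap. Adamts19 had one of 0.11 ± 0.25 (SE).

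Of the 2 tested Adamtsl genes, Adamtsl5 was higher in deleted cells and Adamtsl4 did not pass. Adamtsl5 encodes a secreted protein without a protease domain that binds fibrillin microfibrils. Its counts were 104 and 94 in deleted 1 and 2, or 1.11 and 0.949 CPM, and 57, 51 and 65 in wildtype 1, 2 and 3, or 0.458, 0.446 and 0.301 CPM. Each deleted library was more than 2 times as high as any wildtype library. Adamtsl5 came to 1.03 ± 0.117 CPM over the deleted (SD, n = 2) and 0.402 ± 0.0876 CPM over the wildtype libraries (SD, n = 3). The log2 fold change, 1.40 ± 0.22 (SE), passed at an edgeR adjusted p of 0.00115. All 10 bins with at least 10 counts had a higher mean in deleted cells, with single libraries overlapping in some. Its chromosome 10 neighbours Pcsk4 and Plk5, a polo-like kinase gene, had smaller values, at 0.60 ± 0.21 and 0.38 ± 0.10 (SE; edgeR adjusted p of 0.0451 and 0.0147). Reep6, which lies between Pcsk4 and Adamtsl5, had no row under its symbol, nor had the nearby Mex3d and Mbd3. The Plk5 call was lost on leaving out deleted 1 or deleted 2 (edgeR adjusted p of 0.0974 and 0.0818). The median over tested symbols of chromosome 10 was 0.084 (log2 fold change). Adamtsl4, a microfibril protein gene known from human lens dislocation, had 0.868 and 0.878 CPM in the deleted and 1.05, 0.954 and 1.09 CPM in the wildtype libraries, without overlap, and did not pass (log2 fold change -0.25 ± 0.15, SE).

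The promoter windows of Adamts14, Adamts20 and Adamtsl5, 3 of the 4 genes that were higher, are shown because they differ in make-up from those of the Adam1 pair. No window of Adam32 is shown. Coordinates on GRCm38.p6 are chr10:61273370-61273669, minus strand, for Adamts14, chr15:94404301-94404600, minus strand, for Adamts20, and chr10:80348399-80348698, minus strand, for Adamtsl5. Capitals mark GC boxes on either strand, GGGCGG or CCGCCC, which may overlap.
Adamts14: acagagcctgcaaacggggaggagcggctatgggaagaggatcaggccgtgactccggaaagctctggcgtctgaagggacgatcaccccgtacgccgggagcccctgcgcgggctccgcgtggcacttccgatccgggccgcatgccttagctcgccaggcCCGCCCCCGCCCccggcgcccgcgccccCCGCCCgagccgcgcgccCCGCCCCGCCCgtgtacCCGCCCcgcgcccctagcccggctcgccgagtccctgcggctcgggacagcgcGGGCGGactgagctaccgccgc
Adamts20: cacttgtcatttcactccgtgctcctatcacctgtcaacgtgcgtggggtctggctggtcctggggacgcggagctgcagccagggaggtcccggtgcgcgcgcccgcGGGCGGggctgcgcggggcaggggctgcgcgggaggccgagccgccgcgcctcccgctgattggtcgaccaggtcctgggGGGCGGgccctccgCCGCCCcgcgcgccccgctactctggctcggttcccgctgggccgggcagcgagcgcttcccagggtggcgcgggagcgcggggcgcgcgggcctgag
Adamtsl5: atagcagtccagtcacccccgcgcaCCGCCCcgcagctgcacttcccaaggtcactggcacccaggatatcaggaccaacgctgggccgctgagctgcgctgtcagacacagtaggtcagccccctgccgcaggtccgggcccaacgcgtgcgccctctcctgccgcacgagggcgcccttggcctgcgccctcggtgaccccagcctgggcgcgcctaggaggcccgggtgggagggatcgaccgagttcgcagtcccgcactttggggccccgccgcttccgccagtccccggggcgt
These windows held 7, 3 and 1 GC boxes, and no match to the other 3 motifs. Their CpG ratios were 1.01, 0.92 and 0.757, above the 0.6 that 36% of all RefSeq windows exceeded. The GC-rich make-up was not limited to genes that were higher: Adamts2, Adamtsl4 and Adamts9, which did not pass, had ratios of 0.948, 0.723 and 0.683.

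**Figure D3:**
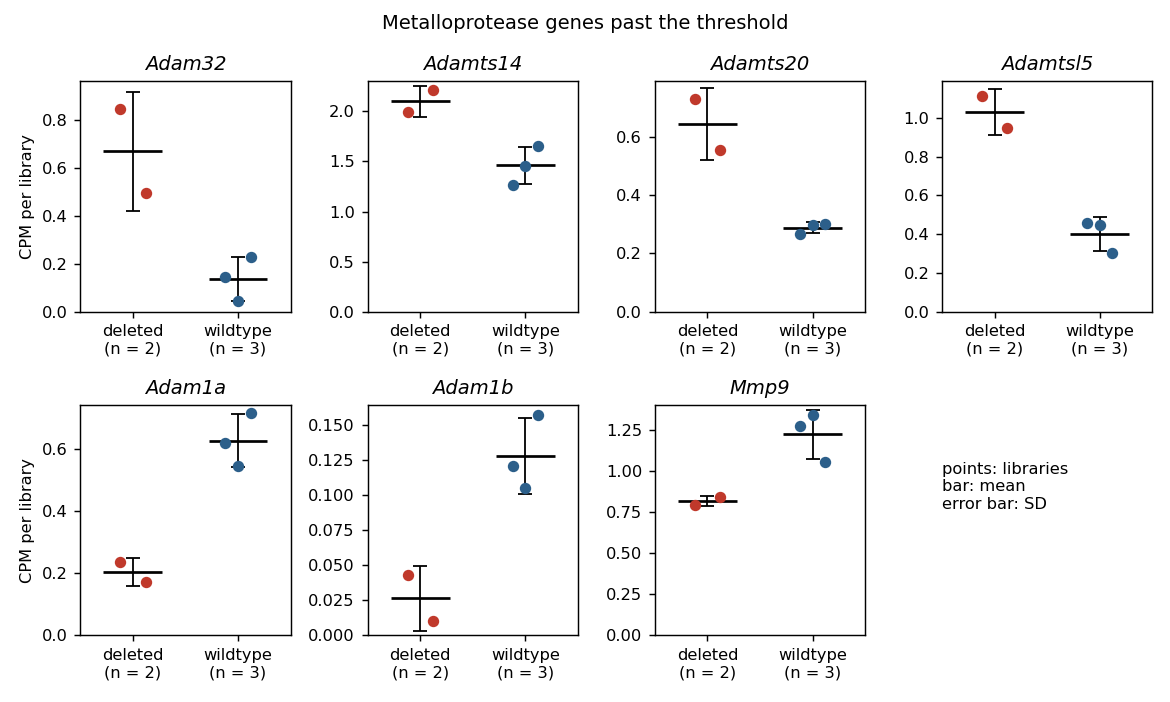
CPM per library of the 7 genes past the threshold, with deleted libraries (n = 2) left of wildtype libraries (n = 3), the mean as a bar and the SD as error bar. No gene has overlapping groups, and the deleted libraries of Adam32 spread from 0.495 to 0.847 CPM.

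Of the 4 tested Mmp genes, Mmp9 was lower in deleted cells and 3 did not pass. Mmp9 is gelatinase B, which cuts denatured collagen and basement membrane collagen. It had 74 and 83 counts in deleted 1 and 2, or 0.793 and 0.838 CPM, against 158, 153 and 227 counts, or 1.27, 1.34 and 1.05 CPM, in wildtype 1, 2 and 3. The deleted libraries lay close together and below every wildtype library. For Mmp9 the group means were 0.815 ± 0.0317 CPM over the deleted (SD, n = 2) and 1.22 ± 0.151 CPM over the wildtype libraries (SD, n = 3), which gave -0.57 ± 0.16 on the log2 scale (SE; edgeR adjusted p of 0.0231). The call was lost without deleted 1, deleted 2, wildtype 1 or wildtype 2 (edgeR adjusted p = 0.131, 0.0805, 0.0533 and 0.0663), while log2 fold changes stayed between -0.68 and -0.50.

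Counts of Mmp9 lay almost wholly in bins 7 to 13, which held 95.3% of them. Of these 7 bins 6 had a lower mean in deleted cells and 1 a higher mean. Its chromosome 2 neighbours Slc12a5 and Cd40 had log2 fold changes of 0.25 ± 0.15 and 0.24 ± 0.22 (SE), which did not pass (edgeR adjusted p = 0.231 and 0.424). Pltp, Pcif1, Zfp335 and Ncoa5, also among the nearest genes of Mmp9, had no row under their symbols. Mmp9 is also known from neutrophils and macrophages, so markers of these cells are given beside it. Of 5 neutrophil markers S100a9 was at 0 in every library, and the list summed to 0.0606 to 0.0857 CPM in the deleted and 0.0416 to 0.932 CPM in the wildtype libraries. The upper value came from wildtype 1, which had 92 Mpo and 18 Elane counts, against 11 and 1 in wildtype 2 and 7 and 0 in wildtype 3. In deleted 1 and 2, Mpo had 7 and 6 counts and Elane was at 0. Of the 5 macrophage markers, Ptprc had 3 and 2 counts in deleted 1 and 2, and 4, 1 and 3 in wildtype 1, 2 and 3. Csf1r, Adgre1 and Lyz2 were at 0 in both deleted libraries and at most 4 counts in a wildtype library, while the integrin gene Itgam was lower in deleted cells (log2 fold change -0.52 ± 0.10, SE; edgeR adjusted p of 0.00357). The list, nearly all of it Itgam, summed to 2.71 to 2.95 CPM in the deleted and 3.99 to 4.23 CPM in the wildtype libraries. What part such cells have in the Mmp9 difference was not tested.

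**Figure D4:**
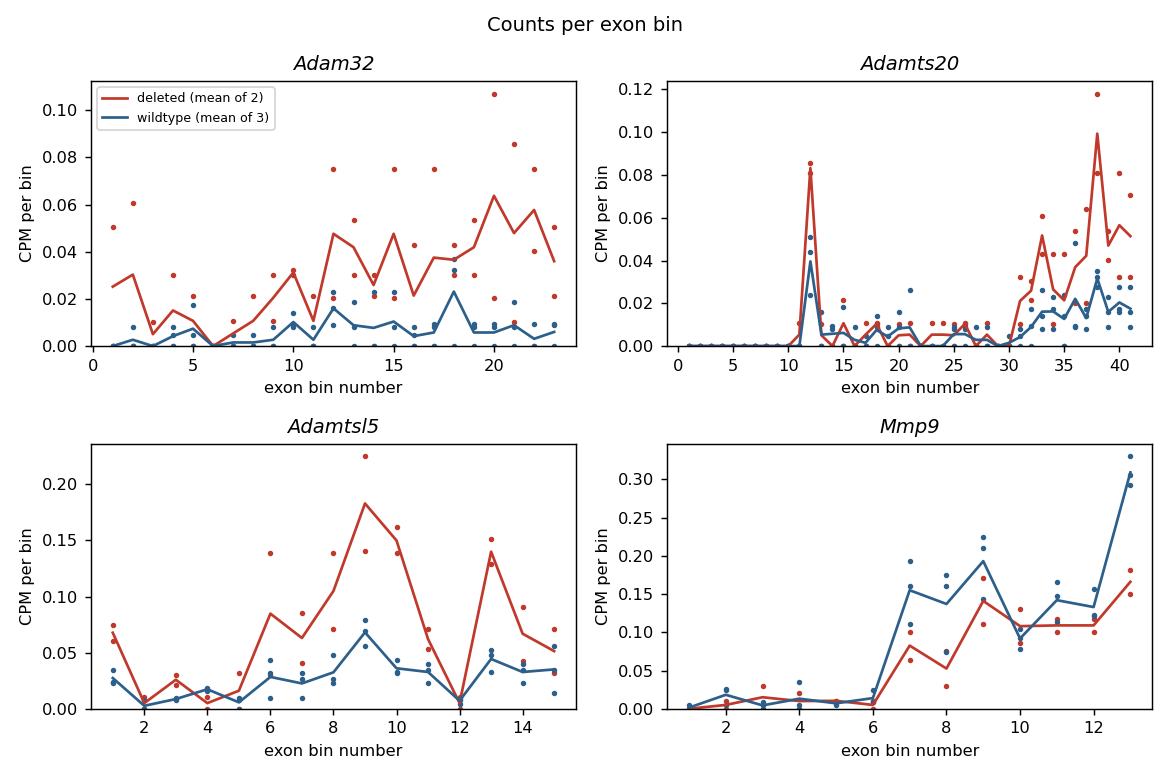
CPM per exon bin, in the order of the table's bin numbers, for Adam32, Adamts20, Adamtsl5 and Mmp9. Red lines are means of the 2 deleted and blue lines of the 3 wildtype libraries, with points for single libraries. In Adam32, Adamts20 and Adamtsl5 every bin of at least 10 counts has a higher mean in deleted cells. Single libraries overlap in some of these bins. Bins are parts of the gene's counts, so their direction is not separate evidence.

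The membrane-bound Mmp25 and Mmp16 and the short Mmp23 did not pass. Mmp25, known from leukocytes, had 0.664 and 0.777 CPM in deleted 1 and 2, below 0.796, 1.05 and 0.949 CPM in wildtype 1, 2 and 3 (log2 fold change -0.37 ± 0.18, SE; edgeR adjusted p of 0.134). Mmp16 and Mmp23 had log2 fold changes of 0.040 ± 0.28 and 0.17 ± 0.24 (SE). Their groups overlapped.

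The other 10 Mmp genes all lie on chromosome 9 and were nearly silent. They include the collagenases Mmp1a, Mmp1b, Mmp8 and Mmp13, the stromelysins Mmp3 and Mmp10, matrilysin Mmp7, the macrophage elastase Mmp12, the enamel protease Mmp20 and Mmp27. Together they had 4 and 7 counts in deleted 1 and 2, and 9, 6 and 15 in wildtype 1, 2 and 3. Of these genes 7 were at 0 in every library, and Mmp12, Mmp20 and Mmp1b held all counts. At this depth no difference between the groups was detectable in these genes.

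The promoter windows of Mmp3 and Mmp13, both at 0, are shown for the contrast with the windows of the Adamts genes. They are chr9:7445572-7445871, plus strand, for Mmp3, and chr9:7272264-7272563, plus strand, for Mmp13, on GRCm38.p6. Capitals mark the AP-1 motif and then the TATA motif.
Mmp3: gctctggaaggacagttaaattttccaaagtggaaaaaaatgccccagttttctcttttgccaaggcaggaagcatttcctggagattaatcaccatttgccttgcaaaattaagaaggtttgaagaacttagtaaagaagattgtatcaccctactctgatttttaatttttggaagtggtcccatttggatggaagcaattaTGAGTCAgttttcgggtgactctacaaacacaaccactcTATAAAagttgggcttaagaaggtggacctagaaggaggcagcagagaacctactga
Mmp13: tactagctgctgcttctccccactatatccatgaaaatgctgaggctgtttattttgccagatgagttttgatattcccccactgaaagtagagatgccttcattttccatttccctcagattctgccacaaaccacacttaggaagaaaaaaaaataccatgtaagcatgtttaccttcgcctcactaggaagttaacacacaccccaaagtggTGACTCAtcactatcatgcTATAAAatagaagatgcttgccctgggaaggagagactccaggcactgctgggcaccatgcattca
Among the 10 chromosome 9 Mmp genes, 8 had an AP-1 match and 9 a TATA match within the window, and all had CpG ratios of at most 0.345. In the wider group, 36 of the 56 genes had a window. A CpG ratio above 0.6 was found in 8 of 15 tested and 2 of 21 untested genes, the TATA motif in 1 of 15 and 13 of 21, and the AP-1 motif in 2 of 15 and 10 of 21. These are descriptions of letters in a fixed window and were not tested. Many untested genes are neighbours that share sequence, so they are not independent.

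The other untested genes had few counts. Adam33 had the most, with 8 and 5 counts in deleted 1 and 2, and 7, 5 and 16 in wildtype 1, 2 and 3. Adamts13, which cuts von Willebrand factor, had 8 and 5 counts in the deleted and 5, 12 and 6 in the wildtype libraries. Adamtsl3 had 2 and 3 counts in the deleted and 7, 3 and 12 in the wildtype libraries. In all 3 genes the groups overlapped in CPM. Adam12, Adam18, Adam3, Adam20, Adam30, Adam39, Adamts5, Adamts12, Adamts16, Adamts18 and Adamtsl2 had at most 9 counts in any library. The genes at 0 were Adam7, Adam24, Adam26a, Adam26b, Adam29, Adam34, Adam6a and Adam6b, besides 7 Mmp genes.

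Exon-bin use, how the counts of a gene divide over its bins, could be tested in 10 of the genes, and 0 of these passed at an edgeR Simes adjusted p under 0.05. The background was 2.76% of 13045 tested genes, and 0.126% of 1588 tested symbols. No gene of the 10 passed at an unadjusted Simes p under 0.05 either, no other tool was run for this, and 1 of 65 single bins had an unadjusted p under that value. That was bin 30 of Adam22, with 1.33% and 0.769% of the gene's counts in deleted 1 and 2, and 2.86%, 1.93% and 1.94% in wildtype 1, 2 and 3 (edgeR unadjusted p = 0.0327). The smallest Simes p-values belonged to Adamts14, Adam8 and Mmp9 (edgeR unadjusted p = 0.375, 0.461 and 0.469). Most of these bins hold few counts, which limits what could be seen.

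Genes that work with these proteases were taken from 8 lists of known inhibitors, processing factors, substrates, regulators and partners. Of 117 listed genes 54 had rows and 32 were tested, of which 12 were higher and 3 lower in deleted cells and 17 did not pass, a share of 46.9% beside 32.1% of all tested symbols. Over all tested genes the called share was 39.7%. Without wildtype 1 the share of listed genes was 32.3% beside 32.9% of all tested genes. Without wildtype 2 it was 29.0% beside 32.6%. Without wildtype 3, 15 of 30 passed, beside 51.9%. Beside all tested genes, the share was thus not higher in these fits, while under RLE scaling it was 46.9% beside 39.8%. Shares of tested symbols were not taken in these fits, so the comparison with symbols was not repeated. The count also fell without either deleted library, which leaves 1 library in that group. The median log2 fold change of the 32 was 0.13.

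Among inhibitors, Spock1, a matrix proteoglycan gene of the testican family, was higher, and 2 of 3 did not pass. Spock1 had 0.697 and 0.686 CPM in deleted 1 and 2, against 0.442, 0.438 and 0.370 CPM in wildtype 1, 2 and 3 (log2 fold change 0.75 ± 0.18, SE; edgeR adjusted p of 0.0110), a call lost without deleted 1 and without deleted 2 (0.0698 and 0.0632). Reck, a membrane-anchored inhibitor of several MMPs, stood at 3.19 and 3.30 CPM in the deleted and 3.37, 3.18 and 3.26 CPM in the wildtype libraries, nearly the same level in all 5 (log2 fold change -0.0096 ± 0.095, SE). Timp4, a direct MMP inhibitor, had 0.12 ± 0.27 (SE).

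Of the proprotein convertases, enzymes that activate other proteins by cutting them, Pcsk1 and Pcsk4 were higher, and Pcsk2 did not pass. Pcsk1 had 2.48 and 2.42 CPM in deleted 1 and 2, above 1.70, 1.69 and 1.67 CPM in wildtype 1, 2 and 3 (log2 fold change 0.54 ± 0.11, SE; edgeR adjusted p of 0.00393), but did not pass in its most counted bin alone (0.24; 0.561). The Pcsk4 call was lost in 10 of 14 alternatives, among them DESeq2 (adjusted p = 0.125) and limma-voom (0.0508), and when any library but wildtype 3 was left out (edgeR adjusted p of 0.0887 to 0.173). Pcsk2 had a log2 fold change of 0.34 ± 0.45 (SE). Among related proteins, Papln, which carries ADAMTS-like domains, was higher (1.44 ± 0.35, SE; edgeR adjusted p of 0.0106), a call lost without deleted 2 (1.11; 0.126). The astacin proteases Bmp1 and Tll1 had -0.22 ± 0.11 and -0.56 ± 0.25 (SE) and did not pass.

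On the list of shed ligands and receptors, known ADAM substrates and their relatives, 1 of 6 tested genes was higher and 2 were lower in deleted cells. Dll1, a Notch ligand gene, had 0.375 and 0.192 CPM in deleted 1 and 2, against 0.836, 0.831 and 0.722 CPM in wildtype 1, 2 and 3 (log2 fold change -1.49 ± 0.26, SE; edgeR adjusted p of 0.00222). Nrg1, a ligand of ErbB receptors, had 0.279 and 0.424 CPM in the deleted and 0.804, 0.989 and 0.981 CPM in the wildtype libraries (-1.39 ± 0.22, SE; edgeR adjusted p of 0.00128). In both genes every deleted library was below every wildtype library, and Nrg1 lies on chromosome 8, with its median of 0.52. Dll3, a Notch ligand that acts inside the cell, was higher at 0.57 ± 0.12 (SE; edgeR adjusted p of 0.00633), not without deleted 2 (0.43; 0.0823). Notch4, Il6ra and Tgfa had -0.21 ± 0.086, 0.031 ± 0.18 and -0.32 ± 0.24 (SE) and did not pass.

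Among proteoglycans and related substrates, Comp and Ncan were higher, Vwf was lower, and Hapln4 and Bcan did not pass. Comp, a cartilage protein cut by ADAMTS7, had 0.450 and 0.384 CPM in deleted 1 and 2, and 0.169, 0.193 and 0.208 CPM in wildtype 1, 2 and 3 (log2 fold change 1.11 ± 0.24, SE; edgeR adjusted p of 0.00584), a call lost without deleted 1 (0.99; 0.0615). Ncan, a brain proteoglycan gene, had 0.50 ± 0.16 (SE; edgeR adjusted p of 0.0327), lost without deleted 2, wildtype 1 or wildtype 2 (edgeR adjusted p = 0.304, 0.105 and 0.0844) and with limma-voom (0.0509). Hapln4 and Bcan had 0.20 ± 0.15 and -0.22 ± 0.22 (SE). Comp, Ncan and Hapln4 also lie on chromosome 8, with its median of 0.52. Vwf, the clotting protein cut by ADAMTS13, had -0.40 ± 0.11 (SE; edgeR adjusted p of 0.0213), lost without deleted 1, deleted 2 or wildtype 2 (edgeR adjusted p = 0.157, 0.0545 and 0.0624).

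Of the collagens, Col1a2 and Col5a2 were higher and Col1a1, Col2a1 and Col4a5 did not pass. Col1a2 had 0.857 and 0.737 CPM in deleted 1 and 2, above 0.490, 0.394 and 0.389 CPM in wildtype 1, 2 and 3 (log2 fold change 0.92 ± 0.19, SE; edgeR adjusted p of 0.00489), and its call ended without deleted 1 (edgeR adjusted p = 0.0551). Col5a2 had 1.06 and 1.02 CPM in the deleted and 0.514, 0.516 and 0.773 CPM in the wildtype libraries (log2 fold change 0.75 ± 0.21, SE; edgeR adjusted p of 0.0193), and its call ended when any library but wildtype 3 was left out (edgeR adjusted p of 0.0580 to 0.105). Col1a1, the partner chain of Col1a2 in type I collagen, had 0.943 and 0.878 CPM in the deleted and 0.780, 0.735 and 0.875 CPM in the wildtype libraries (log2 fold change 0.18 ± 0.16, SE). Col2a1 and Col4a5 had -0.37 ± 0.14 and -0.17 ± 0.46 (SE; edgeR adjusted p of 0.0663 and 0.802). Col1a1 and Col1a2 also mark fibroblasts, in whose list Pdgfrb was higher too (0.49 ± 0.12, SE; edgeR adjusted p of 0.00926) and Fbn1 did not pass (0.15 ± 0.17; 0.520). For Pdgfrb and Fbn1, neither outcome was kept in every fit with 1 library left out.

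Of transcription factors known to act on Mmp promoters, Ets1 was higher (log2 fold change 0.52 ± 0.17, SE; edgeR adjusted p of 0.0407), and 3 AP-1 genes did not pass. The Ets1 call was lost when any library but wildtype 3 was left out (edgeR adjusted p of 0.0935 to 0.209), with DESeq2 (adjusted p = 0.0517) and with limma-voom (0.0566). Jun, an AP-1 subunit, had 1.79 and 1.77 CPM in the deleted and 1.65, 1.69 and 1.78 CPM in the wildtype libraries, with overlapping groups. Fosl2 and Fosb had -0.16 ± 0.23 and -0.18 ± 0.46 (SE). Of proteins that act with sperm ADAMs, Tex101 and Ace were higher and the 3 others with rows, Prss37, Prss21 and Spam1, were at 0. Ace, here chosen for its testis form, had 0.354 and 0.414 CPM in deleted 1 and 2, and 0.0884, 0.175 and 0.213 CPM in wildtype 1, 2 and 3 (log2 fold change 1.21 ± 0.34, SE; edgeR adjusted p of 0.0201), lost without deleted 1 and without deleted 2 (0.0686 and 0.145). The Tex101 call (0.72 ± 0.20, SE; edgeR adjusted p of 0.0198) was lost without any library other than wildtype 3 (0.0544 to 0.146).

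**Figure D5:**
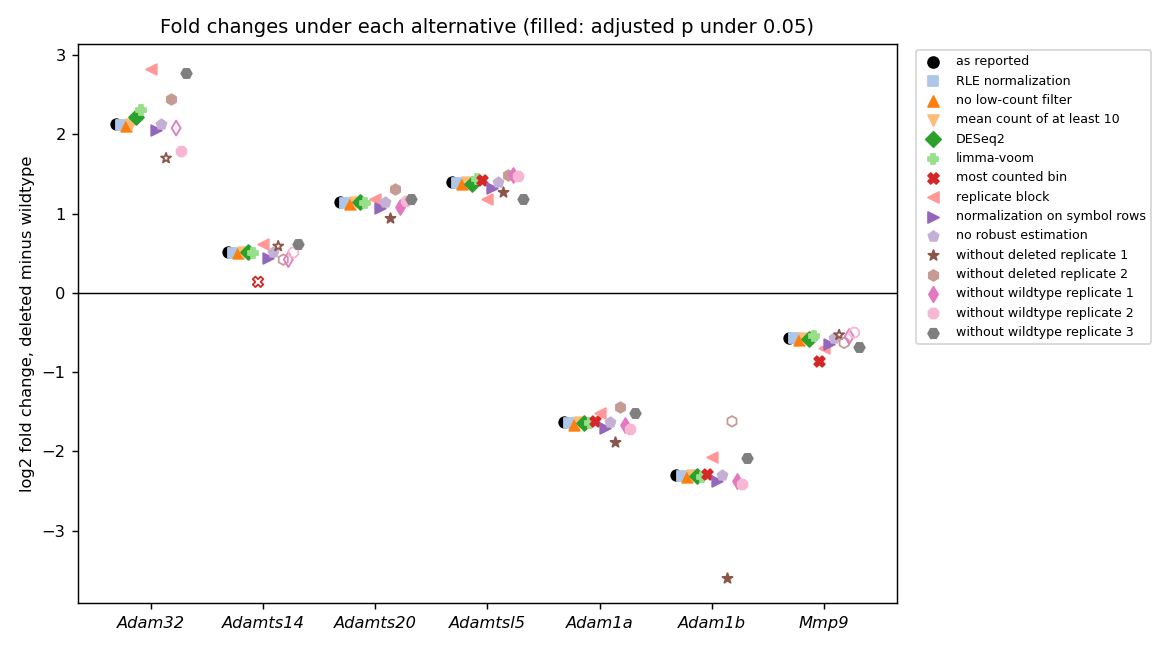
Log2 fold change (deleted minus wildtype) of the 7 called metalloprotease genes as reported and under each alternative processing, with filled symbols where the adjusted p is under 0.05. All values keep their sign, and Adam1a, Adamts20 and Adamtsl5 pass in every alternative that gave them a value.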

How the data were processed

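The authors deposited raw read counts per exon bin (243771 bins, 5 libraries). The submitters' processing notes list STAR, without a version, and mm9. Annotation and strand setting: not given in the sources used here. In exon-bin counting a read can fall in several bins, so totals may exceed read numbers. Bin counts were summed per gene, without the 56 spike-in names, which held at most 0.0005081% of a library's counts. Genes were filtered with filterByExpr (minimum count 10, 2 libraries), given TMM factors and compared by the robust quasi-likelihood F test of edgeR 4.0.16 under R 4.3.3. Alternatives used limma 3.58.1 and DESeq2 1.42.0. P-values were adjusted by Benjamini-Hochberg over all tested genes. Exon-bin use was tested with edgeR's diffSpliceDGE. The scripts were tested on simulated data. GENCODE vM21 (GRCm38) gave chromosomes, exon lengths and overlaps, and placed all 56 genes. Promoters came from RefSeq by symbol, for 36 genes. Every tested gene of the families is named, with per-library values for called genes and for the 6 others of highest mean CPM. From each companion list the called genes and up to 3 others by level are named. 1 result under that rule is not reported here. Chromosome neighbours and markers were named after their values were seen. Members and lists were chosen with earlier results of these data known. Tried alternatives covered scaling, filters, tests, bins, a replicate block and leaving out libraries. Reads without molecular identifiers can be copies of 1 molecule, so the limits given by depth concern counting error alone.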

Additional observations from a re-analysis of the deposited data

How the results depend on the processing

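All 7 called metalloprotease genes kept their sign in each alternative that gave them a value, and Adam1a, Adamts20 and Adamtsl5 also passed in each of these. The most counted bin gave no value for Adam32 and Adamts20. Adam1a and Adam1b have 1 bin each, so for this pair that run used the same counts again. The count of 7 was unchanged under RLE scaling, either low-count filter, DESeq2, limma-voom, symbol-row scaling and non-robust estimation, the last pair chosen after seeing the data. It was 4 in the most counted bin alone and 4 to 8 when 1 library was left out. Over all genes the count was 6453, and 3555 to 8347 with 1 library left out. The companion count of 15 was 4 in the most counted bin alone and 5 to 15 with 1 library left out. In the most counted bin alone, only 18 metalloprotease and 23 companion genes were tested. The called shares there were 22.2% and 17.4%, beside 36.9% of all genes tested in that run. Leaving out a deleted library assumes that the other varies like the wildtype ones. Exon-bin calls were 0 in each setting run. Scaling on symbol rows shifted the median log2 fold change of all genes by -0.079 and gave 2430 higher and 4098 lower genes, against 3245 and 3208. Whether replicate numbers pair the libraries could not be decided. The correlation of deviations from group means was 0.0536 for number 1 and -0.0539 for number 2. With 2 deleted libraries these deviations mirror each other, so the 2 values are not independent. The replicate block also leaves out wildtype 3, which has no partner, so the effects of the block and of that library are not separated. With it, 8272 genes and 8 metalloprotease genes passed, against 8347 and 8 when wildtype 3 was left out without a block. Adamts1 was added in both (log2 fold change 0.48 and 0.49; edgeR adjusted p = 0.0360 and 0.0449). Fbn1 and Mpo also passed with the block. Without a block, Fbn1 also passed in at least 1 fit with 1 library left out, while Mpo did not.

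Changes of sign occurred only among genes that passed in neither setting. In the most counted bin alone, log2 fold changes were -0.24 for Adam22, -0.080 for Adam28, -0.16 for Adam8, -0.042 for Adamts15, -0.0019 for Adamts2 and -0.11 for Il6ra. With symbol-row scaling they were -0.0066 for Adam22, -0.021 for Adamts15, -0.046 for Adamts2, -0.034 for Mmp16, -0.044 for Il6ra and -0.020 for Jun. With the block they were -0.054 for Adam28, -0.13 for Adamts2, 0.036 for Adamts9 and -0.026 for Timp4. With 1 library left out the ranges were -0.53 to 0.37 for Adam21, -0.030 to 0.18 for Adam22, -2.05 to 0.54 for Adam25, -0.73 to 0.71 for Adam28, -0.022 to 0.25 for Adam8, -0.026 to 0.12 for Adamts15, -0.19 to 0.34 for Adamts19, -0.19 to 0.21 for Adamts2, -0.27 to 0.035 for Adamts9 and -0.34 to 0.33 for Mmp16. Among companions they were -0.053 to 0.013 for Reck, -0.025 to 0.17 for Timp4, -0.14 to 0.70 for Pcsk2, -0.060 to 0.12 for Il6ra, -0.81 to 0.25 for Col4a5, -0.31 to 0.0054 for Fosl2 and -1.21 to 0.38 for Fosb. The cause was not tested.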
